A study of Mus musculus with 30 samples.

Results

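The matrix metalloproteases (MMPs), the ADAM, ADAMTS and ADAMTS-like (ADAMTSL) proteins and the tissue inhibitors of metalloproteases (TIMPs) were examined in mouse liver RNA-seq data. Members were the genes whose symbol carries one of these family names with a number and whose expected counts, the reads that RSEM assigned to a gene, summed to 50 or more over 30 livers. Of 55450 genes in the table, 78 had such a symbol and 47 were members. These were 15 of 23 MMPs, 3 of 4 TIMPs, 11 of 27 ADAMs, 13 of 19 ADAMTS genes and 5 of 5 ADAMTSL genes. Of the 31 others, 13 had no count in any liver and 18 had some. Just inside the minimum were Adamts3 with 59 counts and Adam22 with 60, and just outside were Mmp25 with 47 and Adamts16 with 40. The sum runs over all 30 livers, so a gene can be a member through the group where it is high.

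The livers came from male mice in 3 experiments, each with 5 Cre-negative Cebpa fl/fl mice and 5 Cre-positive mice that lack CEBPA, a transcription factor of hepatocytes, in hepatocytes. All mice ate a diet rich in fat, cholesterol and fructose (HFCFD), and none of the 30 was chow-fed, so no diet effect can be read from these livers. In HFCFD2W, Cebpa ΔHep mice carried a constitutive albumin-Cre and were fed for 2 weeks. A tamoxifen-inducible albumin-Cre was carried by the Cebpa ΔHep,ERT2 mice of the other experiments, HFCFD8W+T10D and HFCFD12W+T10W. Tamoxifen was given for the last 10 days in the first of these, with 8 weeks in its label, and for the last 10 of 22 weeks in the second. The treatment labels of the fl/fl mice in those experiments name tamoxifen as well. The strains had been backcrossed to C57BL/6N, and ages are not given in the sources used here. Since the experiments differ in Cre line, feeding time, tamoxifen and mice at once, these cannot be told apart in any comparison between experiments.

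MMPs are zinc proteases that cut collagen, elastin and other parts of the extracellular matrix, most of them secreted as inactive precursors and some held at the cell surface (the membrane-type MMPs). TIMPs bind and block them. ADAMs are membrane proteases that release the outer parts of other membrane proteins, ADAMTS proteases are secreted and trim procollagens and proteoglycans, and ADAMTSL proteins share the ADAMTS ancillary domains but lack the protease domain. In injured liver these genes are known mainly from hepatic stellate cells, macrophages, neutrophils and bile duct cells, while hepatocytes make few of them. The liver pieces were bulk tissue, and fewer cells of a type and less RNA per cell cannot be told apart in them.

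Position was shared by a group of the MMPs. On chromosome 9 of mm10, 10 MMP genes lie between bases 7272514 and 7699585, and 5 of them were members (Mmp13, Mmp12, Mmp8, Mmp27 and Mmp7). The other 5 (Mmp1b, Mmp3, Mmp1a, Mmp10 and Mmp20) summed to between 0 and 11 counts over the 30 livers. Mmp12 overlaps Mmp1b on the opposite strand, and Mmp1b had no count. All 5 members had a higher level in every knockout liver of HFCFD12W+T10W than in any control of that experiment, which also held for 24 of the 34 members tested there and for 19.6% of all genes tested, so it does not set the group apart. Mmp8 and Mmp13 were too low to be tested. Mmp7 is a member only through these knockouts, which held 282 of its 310 counts over the 30 livers. Their promoters, the 250 bases before each transcription start in RefSeq on GRCm38.p6, are shown for their shared position, with that of Mmp15, on another chromosome, which was higher in knockout livers of all 3 experiments. Capitals mark 2 sequences searched on both strands, the AP-1 motif TGANTCA and the C/EBP motif TTGCNNAA, whose matches share no letters in any member promoter. Of the Mmp15 window 28 bases, and of the first Mmp12 window 16, lie in annotated exons. A second Mmp7 window, at chr9:7692091-7692340, is not printed since 152 of its bases are exonic.
Mmp13, chr9:7272264-7272513, plus strand: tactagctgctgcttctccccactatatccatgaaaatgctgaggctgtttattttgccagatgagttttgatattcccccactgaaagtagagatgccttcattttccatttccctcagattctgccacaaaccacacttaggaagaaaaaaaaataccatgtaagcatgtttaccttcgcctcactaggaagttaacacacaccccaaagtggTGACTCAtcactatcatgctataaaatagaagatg
Mmp12, first start, chr9:7344147-7344396, plus strand: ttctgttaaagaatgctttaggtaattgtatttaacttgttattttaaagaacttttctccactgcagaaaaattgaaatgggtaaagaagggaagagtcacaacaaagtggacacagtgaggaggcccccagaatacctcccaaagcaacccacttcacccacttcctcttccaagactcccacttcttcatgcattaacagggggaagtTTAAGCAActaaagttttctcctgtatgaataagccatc
Mmp12, second start, chr9:7347124-7347373, plus strand: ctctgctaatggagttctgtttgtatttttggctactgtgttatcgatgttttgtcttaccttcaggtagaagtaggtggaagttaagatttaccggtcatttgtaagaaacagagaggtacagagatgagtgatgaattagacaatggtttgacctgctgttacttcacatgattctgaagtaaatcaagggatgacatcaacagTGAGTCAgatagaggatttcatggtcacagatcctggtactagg
Mmp8, chr9:7558179-7558428, plus strand: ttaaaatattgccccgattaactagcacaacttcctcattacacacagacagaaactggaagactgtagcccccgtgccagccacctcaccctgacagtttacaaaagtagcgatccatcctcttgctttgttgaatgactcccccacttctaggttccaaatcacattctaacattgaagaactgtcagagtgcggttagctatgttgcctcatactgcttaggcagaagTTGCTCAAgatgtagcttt
Mmp27, chr9:7571146-7571395, plus strand: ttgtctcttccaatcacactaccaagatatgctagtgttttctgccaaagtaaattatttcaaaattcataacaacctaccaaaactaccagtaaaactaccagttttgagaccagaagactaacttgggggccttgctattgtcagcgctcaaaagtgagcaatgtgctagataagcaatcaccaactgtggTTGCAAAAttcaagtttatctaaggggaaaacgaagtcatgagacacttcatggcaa
Mmp7, chr9:7691840-7692089, plus strand: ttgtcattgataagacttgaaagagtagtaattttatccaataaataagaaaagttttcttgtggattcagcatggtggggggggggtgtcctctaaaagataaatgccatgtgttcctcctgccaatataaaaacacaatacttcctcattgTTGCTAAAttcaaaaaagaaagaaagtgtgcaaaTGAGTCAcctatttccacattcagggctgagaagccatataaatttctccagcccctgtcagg
Mmp15, chr8:95352046-95352295, plus strand: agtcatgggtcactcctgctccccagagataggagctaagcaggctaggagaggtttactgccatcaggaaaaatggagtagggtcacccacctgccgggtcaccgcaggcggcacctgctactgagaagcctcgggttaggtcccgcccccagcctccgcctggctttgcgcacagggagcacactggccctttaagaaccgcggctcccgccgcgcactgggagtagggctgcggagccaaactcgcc

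An AP-1 match began 35 bases before the start of Mmp13, 44 before the second start of Mmp12 and 63 before the first start of Mmp7. A C/EBP match began 39 bases before the first start of Mmp12, 19 before Mmp8, 57 before Mmp27 and 97 before the first start of Mmp7. The Mmp15 window and the second Mmp7 window held neither sequence. Among 32851 RefSeq promoter windows of this length, 6.75% held the AP-1 motif and 9.56% the C/EBP motif. Of the 47 members 32 had a window, 37 windows in all. AP-1 matches were in 4 of them (10.8%), the fourth at Adam19, and C/EBP matches in 6 (16.2%), the others at Adam8 and Adam15. A match is a run of letters and not a binding site.

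The libraries held 7996128 to 10257366 expected counts each. Values per mouse are counts scaled to a common library size (CPM) on 1 TMM scale over the 30 libraries. Cebpa mRNA, the targeted gene, was at 149 to 193 CPM in HFCFD2W controls and 3.43 to 5.68 in knockouts. The HFCFD8W+T10D ranges were 121 to 156 and 11.1 to 25.1, and those of HFCFD12W+T10W were 82.5 to 135 and 18.7 to 23.8 (exact two-sided permutation test, p = 0.00794 in each, the smallest that 5 mice against 5 allow). Hepatocyte markers were high in every library, with a summed CPM of 8 such markers of 48870 or more. That sum ranged from 92390 to 115700 in HFCFD12W+T10W controls and from 48870 to 58900 in knockouts, and from 108000 to 133200 and 54490 to 107200 in HFCFD8W+T10D. With TPM, the length-corrected transcript abundance of RSEM, in place of TMM, the median log2 fold change of all genes tested moved from 0.01 to 0.10 in HFCFD2W, to 0.18 in HFCFD8W+T10D and to 0.32 with HFCFD12W+T10W. Fold changes below are on the TMM scale. Of other marker lists, 0 of 8 endothelial genes passed in HFCFD2W, 1 passed lower in HFCFD8W+T10D, and 1 higher and 2 lower in HFCFD12W+T10W. Of the lymphocyte genes 4 of 5 tested, and of the mesothelial genes 2 of 4, passed higher in HFCFD12W+T10W, as did 27.4% of all genes tested. In HFCFD8W+T10D 0 of 3 and 1 of 4 passed higher, beside 10.3% of all genes, and in HFCFD2W 0 of 1 and 0 of 4. The median log2 fold change of the mesothelial genes in HFCFD8W+T10D was -0.97.

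Genotype was compared within each experiment with edgeR's quasi-likelihood test over all genes that passed a filter on low counts, with Benjamini-Hochberg adjustment. Values in brackets below are log2 fold changes of knockout over fl/fl with their SE and the adjusted p of this test. A gene passed at an adjusted p under 0.05 and was called where the fold change also exceeded 2. In HFCFD2W 20 of the 47 members had counts enough to be tested, and 1 was called higher and 0 lower, where 1.69% of 11068 genes were called higher and 1.38% lower. Without the fold minimum 2 passed, both higher, where 8.6% of genes passed higher and 8.09% lower. The groups did not overlap for 1 member, higher in knockouts, where 6.33% of genes lay apart upward and 6.13% downward. In HFCFD8W+T10D 29 members were tested, of which 5 were called higher and 1 lower, against 4.09% and 2.01% of 11990 genes, and 11 passed higher and 1 lower, against 10.3% and 6.85%. Groups lay apart for 6 members, all higher, against 6.01% higher and 5.5% lower. In HFCFD12W+T10W 34 were tested, of which 20 were called higher and 0 lower, against 14.3% and 3.47% of 12463 genes. There 27 members passed higher and 3 lower, against 27.4% and 23.8%, and groups lay apart for 24 higher and 3 lower, against 19.6% and 19.5%. The median log2 fold change of the members tested was 0.14, 0.40 and 1.56 in these experiments, beside 0.01 for all genes in each. With Mmp7 held at its lower bound (below) the last stayed at 1.56. These medians cover 20, 29 and 34 members, and the filter admits a gene that is low in controls through its level in knockouts, as it did Mmp7. No HFCFD12W+T10W control had more than 9 counts of Timp1, Mmp23, Mmp27, Adam8, Adam19, Adamts12 or Adamtsl1. No HFCFD8W+T10D control had more than 7 of Adam8. Such members were tested through their knockouts, so the filter favoured a higher call for them. The shares of all genes passed the same filter. Over the 20 members tested in all experiments the medians were 0.14, 0.32 and 0.77. Since 13 members were too low to be tested anywhere and others only in some experiments, these shares describe the more abundant members.

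**Figure D1:**
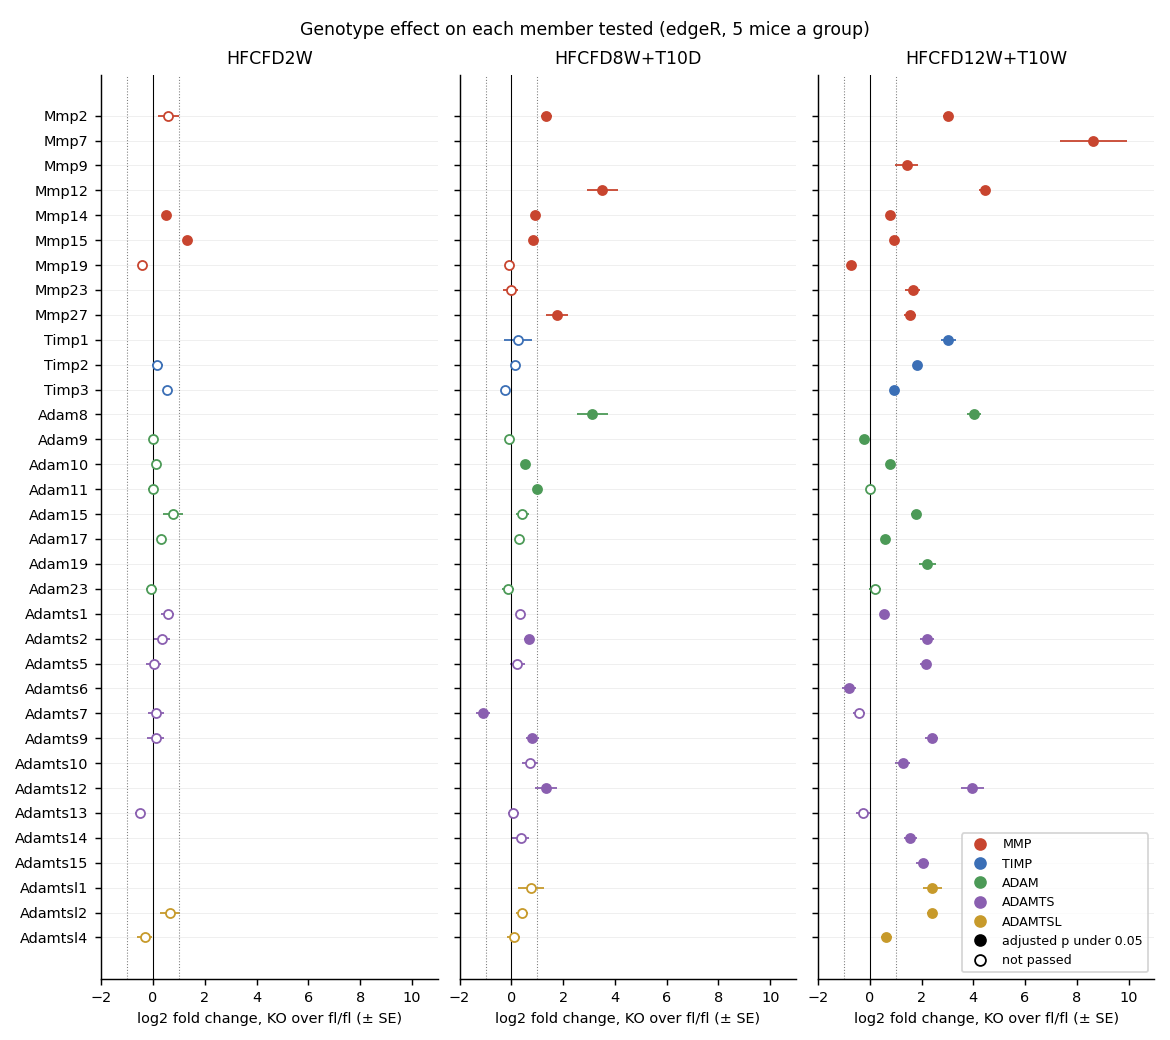
Log2 fold change of knockout over fl/fl livers (x axis, with SE) for the 34 members tested in at least 1 experiment (y axis), 1 panel an experiment, coloured by family, with filled points for adjusted p under 0.05 and dotted lines at a fold of 2. The HFCFD2W panel has 2 filled points, the HFCFD8W+T10D panel 12 and the HFCFD12W+T10W panel 30, and the Mmp7 point, whose controls had no count, depends on the fit's prior count.

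The levels of different genes were compared as TPM, which corrects for length. Over the 30 livers Mmp19 was highest with a mean of 30.3 TPM, followed by Adam9 with 28.5, Mmp14 with 14.6, Mmp15 with 14.5, Timp3 and Adamtsl2 with 11.5 each, Adam10 with 11.2, and Timp2 and Mmp12 with 10.5 each. The ADAMTS genes were lower, led by Adamts1 with 3.02 and Adamts2 with 2.26. The summed TPM of the 15 MMPs was 47.9 ± 5.27 (SD, n = 5) in HFCFD2W controls and 64.4 ± 5.16 in knockouts. It was 57.3 ± 8.25 in HFCFD8W+T10D controls and 107.5 ± 40.6 in knockouts, and 59.97 ± 3.93 and 153 ± 12.9 for HFCFD12W+T10W. The knockouts of HFCFD8W+T10D spread from 58.4 to 171, so that the lowest lay within its controls (44.6 to 63.5). The 3 TIMPs summed to 18.8 ± 2.79 TPM in HFCFD12W+T10W controls and 67.8 ± 5.78 in knockouts, but to 20.9 ± 3.94 and 24.2 ± 7.80 in HFCFD8W+T10D. All 5 families were higher in every knockout liver of HFCFD12W+T10W than in its controls on this scale.

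**Figure D2:**
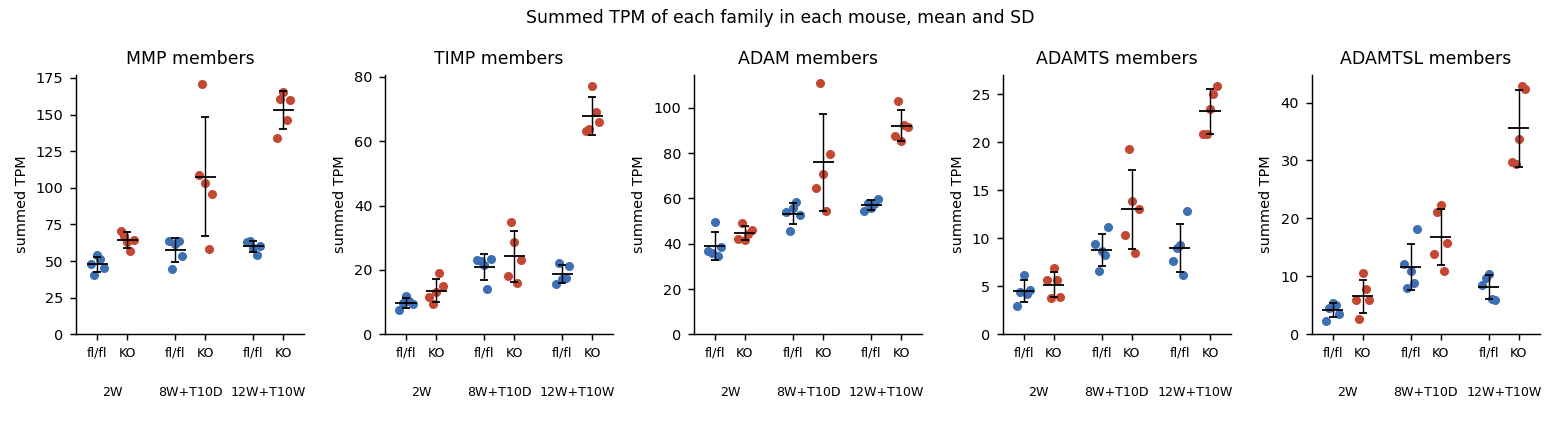
Summed TPM of the members of each family (y axis, from 0) in each of the 30 livers (points), with mean and SD of 5 mice, for fl/fl and knockout (KO) groups of the 3 experiments. TIMP sums lie between 63.1 and 77.2 in HFCFD12W+T10W knockouts and at or below 34.99 in the other 25 livers.

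The makeup of the MMP family differed between groups. Mmp19 alone gave 61.2% of MMP TPM in HFCFD2W controls, 58.0% in HFCFD8W+T10D controls and 56.8% in HFCFD12W+T10W controls, and 17.5% in HFCFD12W+T10W knockouts. Mmp12 gave 26.8% there, where it stood at 41.0 ± 5.86 TPM against 1.52 ± 0.763 in controls, and was the most abundant MMP. In HFCFD2W knockouts Mmp15 held that place with 46.8%. Among the TIMPs, Timp1 gave 6.28% of the family's TPM in HFCFD12W+T10W controls and 18.9% in knockouts. These shares are descriptions and were not tested.

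**Figure D3:**
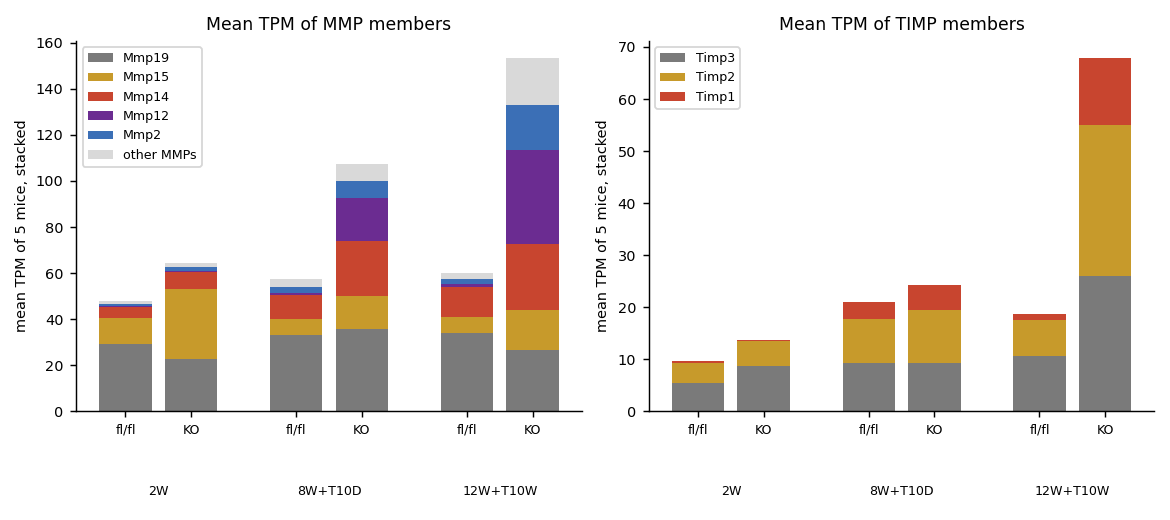
Mean TPM of 5 mice (y axis, from 0), stacked by gene, for MMP members (left) and TIMP members (right) in the 6 groups. Mmp12 reaches 41.0 TPM in HFCFD12W+T10W knockouts and 18.6 in HFCFD8W+T10D knockouts, and is at 1.52 TPM or below in the 3 control groups and at 0.56 in HFCFD2W knockouts.

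Of the membrane-type MMPs, Mmp14 and Mmp15 passed in all 3 experiments, and no other member did. Mmp15, which encodes MT2-MMP, was at 57.9, 51.8, 60.5, 74.5 and 58.8 CPM in the HFCFD2W controls and at 154, 114, 184, 133 and 164 in the knockouts. Every knockout liver lay above every control (1.31 ± 0.13 SE, adjusted p = 2.8e-05, log2 scale). In HFCFD8W+T10D the controls had 35.2, 31.2, 34.99, 32.8 and 23.1 CPM and the knockouts 55.5, 62.5, 65.5, 50.2 and 44.4 (0.84 ± 0.14 SE, adjusted p = 0.00165). In HFCFD12W+T10W the controls had 29.2, 27.9, 25.3, 35.9 and 26.1 CPM and the knockouts 47.1, 57.1, 62.6, 51.99 and 48.3 (0.93 ± 0.11 SE, adjusted p = 1.99e-05). The groups did not overlap in either, although the fold stayed under 2, and the difference between the HFCFD2W and HFCFD8W+T10D effects did not pass (-0.48 ± 0.19 SE, adjusted p = 0.095). Mmp15 passed under each alternative tried in all 3 experiments.

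Mmp14 encodes MT1-MMP, the collagenase of the cell surface that also activates pro-MMP2. In HFCFD8W+T10D it was at 20.98, 16.2, 26.5, 21.2 and 23.3 CPM in controls and 54.1, 40.96, 44.3, 27.2 and 35.4 in knockouts, with no overlap (0.91 ± 0.18 SE, adjusted p = 0.00454). In HFCFD12W+T10W it was at 21.98, 18.4, 27.3, 29.8 and 30.2 CPM in controls and 35.7, 43.8, 52.4, 36.7 and 43.3 in knockouts, again without overlap (0.77 ± 0.15 SE, adjusted p = 0.000763). In HFCFD2W the groups overlapped (9.65 to 13.2 and 12.01 to 20.5 CPM, 0.49 ± 0.15 SE, adjusted p = 0.0406), and that pass was lost in 7 of 10 fits that left out 1 mouse. The other membrane types were too low to test by genotype. Mmp17, a GPI-anchored type, had 16 counts in all in HFCFD12W+T10W controls and 62 in knockouts, and Mmp24 had 2 and 53, in both with every knockout above every control. The knockout mean of Mmp24 was at least 2.69-fold higher than the floor of 3 counts a library. Mmp24 is a member only through these knockouts, which held 53 of its 76 counts over the 30 livers.

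Mmp12, the macrophage elastase, had the largest fitted change among members with counts in both groups. HFCFD12W+T10W controls had 2.26, 1.13, 2.87, 0.689 and 2.22 CPM and knockouts 36.01, 46.3, 37.8, 36.5 and 38.3 (4.44 ± 0.22 SE, adjusted p = 3.39e-08). HFCFD8W+T10D controls had 4.52, 1.42, 0.348, 1.12 and 1.48 CPM and knockouts 20.2, 40.6, 22.8, 5.22 and 11.02 (3.52 ± 0.58 SE, adjusted p = 0.00168). The lowest knockout of that experiment lay close above the highest control, and its knockouts spread over a wider range than those of HFCFD12W+T10W. In HFCFD2W Mmp12 was near the floor in both genotypes (0.276 to 0.6995 and 0.269 to 0.894 CPM) and was not tested.

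Macrophage markers differed beside Mmp12. Of 12 macrophage markers, 10 passed higher and 0 lower in HFCFD8W+T10D, and 9 higher and 2 lower in HFCFD12W+T10W. Of all genes 10.3% passed higher and 6.85% lower in the former, and 27.4% and 23.8% in the latter. In HFCFD2W, where Mmp12 was near the floor in both genotypes, 3 of 8 tested passed higher and 0 lower, beside 8.6% and 8.09% of all genes. Their summed level was 443 to 721 CPM in HFCFD8W+T10D controls and 689 to 1478 in knockouts, and 236 to 693 and 761 to 894 in HFCFD12W+T10W, with no marker at 0 in any group. The sums overlapped between genotypes in HFCFD8W+T10D and not in HFCFD12W+T10W. The macrophage genes' part in the Mmp12 change was not tested.

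The gelatinases Mmp2 and Mmp9 cut denatured and basement membrane collagen. Mmp2 was at 6.06, 4.65, 3.102, 2.99 and 2.63 CPM in HFCFD12W+T10W controls and 29.9, 23.9, 37.8, 31.3 and 28.9 in knockouts (3.02 ± 0.20 SE, adjusted p = 2.99e-07). The HFCFD8W+T10D level was 5.91, 5.82, 5.21, 3.25 and 5.02 CPM in controls and 9.37, 16.5, 15.4, 11.4 and 10.5 in knockouts (1.35 ± 0.21 SE, adjusted p = 0.000896). Neither pair of groups overlapped, and Mmp2 passed in both under each alternative tried. In HFCFD2W the knockouts ranged from 1.01 to 8.11 CPM around controls of 1.63 to 3.86 (0.59 ± 0.41 SE, adjusted p = 0.355). Mmp9 was called in HFCFD12W+T10W only on low values (0.202 to 1.49 CPM in controls and 0.872 to 3.21 in knockouts, 1.42 ± 0.46 SE, adjusted p = 0.02), the groups overlapped, and the pass was lost in 2 of 10 fits without 1 mouse. It was too low to test in the other experiments.

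Mmp7, or matrilysin, a small MMP without the hemopexin domain that is known from bile duct and other epithelia, had no count in any of the 5 HFCFD12W+T10W controls. The knockouts there had 1.13, 2.31, 6.84, 4.56 and 9.15 CPM, 282 counts in all. Their mean of 4.80 CPM was at least 14.2-fold higher than the floor of 3 counts a library (adjusted p = 0.000535). In HFCFD8W+T10D 2 counts fell in controls and 21 in knockouts, with overlapping groups. Cholangiocyte markers also moved: 8 of 8 passed higher in HFCFD12W+T10W, where their sum was 6.09 to 39.4 CPM in controls and 110 to 180 in knockouts. In HFCFD8W+T10D 4 of 6 tested passed higher, with sums of 11.7 to 21.8 and 53.8 to 118 CPM. In HFCFD2W 1 of 2 tested passed higher, the same sum was 10.3 to 27.9 CPM in controls and 60.4 to 135 in knockouts, and Mmp7 had 3 counts in controls and 2 in knockouts. Of all genes tested 27.4% passed higher in HFCFD12W+T10W, 10.3% in HFCFD8W+T10D and 8.6% in HFCFD2W. The marker genes' part in the Mmp7 change was not tested.

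The collagenases Mmp8 and Mmp13 cut fibrillar collagen. Both were too low to be tested within an experiment. Mmp13, in HFCFD8W+T10D, was at 0.695, 0.647, 0.463, 0.102 and 0.787 CPM in controls and 2.53, 7.24, 2.82, 0.830 and 2.09 in knockouts, and in HFCFD12W+T10W at 0.119, 0.340, 0.230, 0.344 and 0.303 and 2.09, 2.86, 0.845, 2.28 and 2.83. No knockout fell among the controls in either experiment, and the knockout mean in the second was at least 6.46-fold above the floor. Mmp8, the neutrophil collagenase, had 5 counts in HFCFD12W+T10W controls and 80 in knockouts, at least 4.13-fold above the floor. In HFCFD8W+T10D it had 23 and 24 counts, 17 of the 23 in 1 control mouse. The summed level of 9 neutrophil markers was 2.15 to 7.35 CPM in HFCFD12W+T10W controls and 12.99 to 105 in knockouts, and 1.42 to 34.5 and 4.69 to 15.7 in HFCFD8W+T10D, with Ly6g at 0 in the controls of HFCFD2W and HFCFD8W+T10D and Camp at 0 in those of HFCFD12W+T10W. Their part in the Mmp8 and Mmp9 values was not tested.

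Mmp27, a stromelysin-like gene of the chromosome 9 group, was called in both inducible experiments. It was at 0.927, 0.517, 1.39, 0.305 and 0.787 CPM in HFCFD8W+T10D controls and 3.09, 4.195, 2.82, 1.66 and 1.33 in knockouts, where the highest control lay above the lowest knockout (1.76 ± 0.41 SE, adjusted p = 0.0118). In HFCFD12W+T10W it was at 0.594, 0.680, 0.919, 1.03 and 0.707 and 2.53, 2.402, 2.196, 1.73 and 2.43 CPM without overlap (1.55 ± 0.22 SE, adjusted p = 8.34e-05). Mmp23, which lacks the usual secretory and hemopexin parts, was called higher in HFCFD12W+T10W (0.453 to 1.07 and 1.13 to 2.96 CPM, 1.66 ± 0.30 SE, adjusted p = 0.000577) and not in HFCFD8W+T10D (-0.03 ± 0.30 SE, adjusted p = 0.958). Mmp11, a stromelysin, had 12 counts in HFCFD12W+T10W controls and 56 in knockouts without overlap, and Mmp28 had 12 and 26 with overlap, and neither was tested.

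Mmp19, the most abundant MMP of the control livers, was the 1 MMP that passed lower. HFCFD12W+T10W controls had 98.3, 101, 85.9, 66.9 and 79.1 CPM and knockouts 51.3, 52.8, 49.7, 53.5 and 45.1 (-0.73 ± 0.11 SE, adjusted p = 9.48e-05). The highest knockout lay below the lowest control in CPM, with a fold under 2. In TPM the groups overlapped, at 25.6 to 41.9 in controls and 24.8 to 28.3 in knockouts. Over the alternatives tried the log2 fold change ranged from -0.821 to -0.315, and Mmp19 passed in each. In HFCFD2W the value was -0.45 ± 0.15 SE, adjusted p = 0.0613, and in HFCFD8W+T10D -0.11 ± 0.10 SE, adjusted p = 0.523, neither passed. Exons of Mmp19 overlap Gm47093 and Tmem198b on the other strand. Such an overlap was found for 14 members, the others being Mmp7, Mmp11, Mmp12, Mmp24, Mmp28, Timp3, Adam8, Adam15, Adam17, Adam19, Adamts4, Adamts7 and Adamts9. The libraries were stranded, and whether strand was used in counting is not given in the sources used here, so reads of these members and of their partners on the other strand may not be separated.

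**Figure D4:**
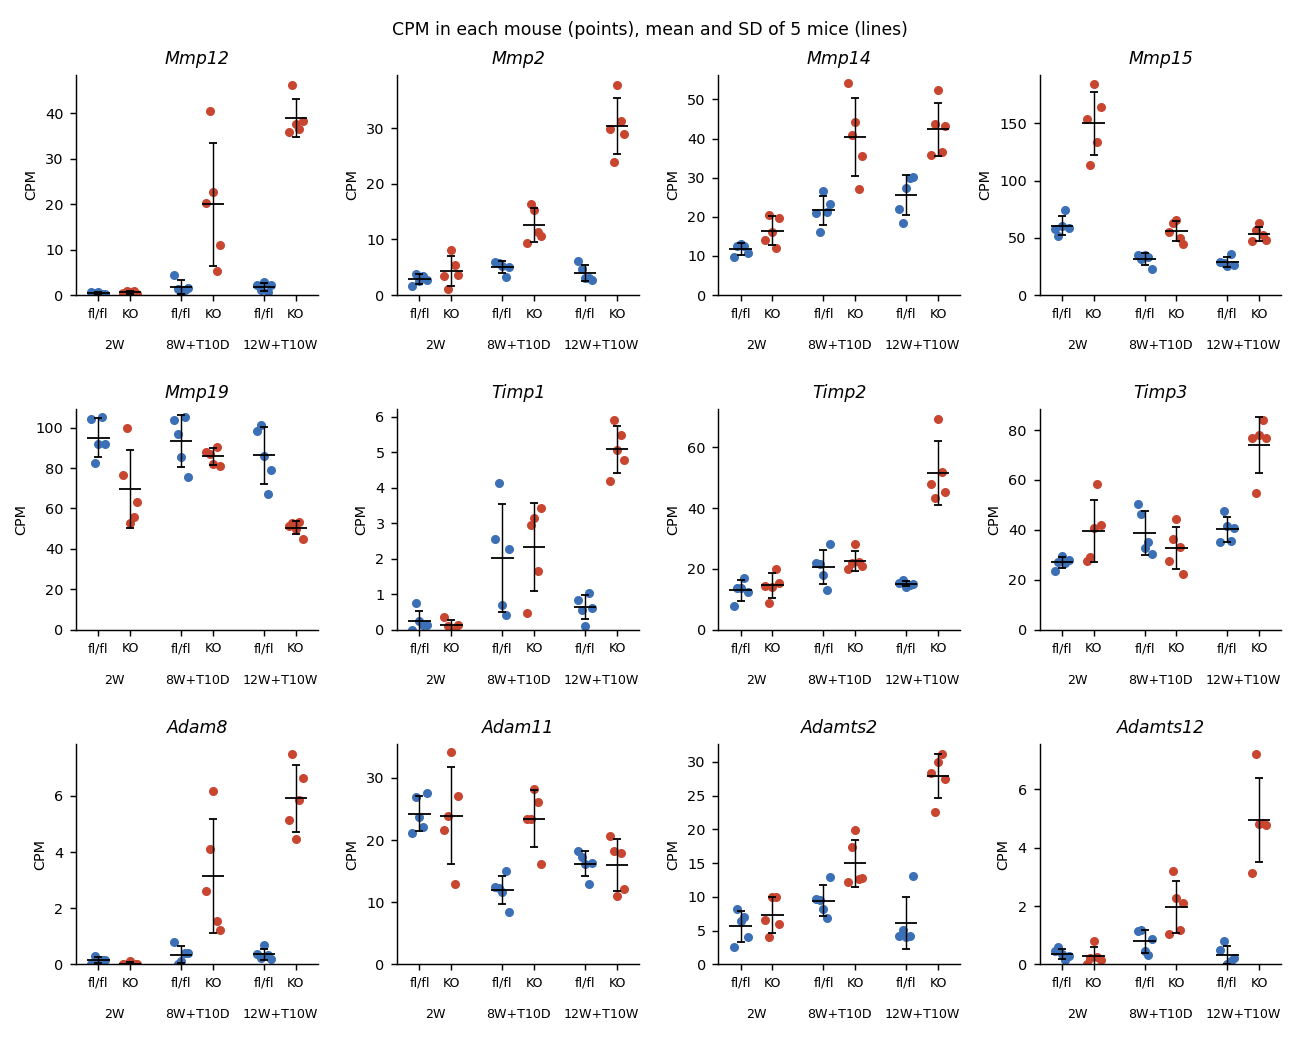
CPM on a linear axis from 0 (y axis) of 12 members in each of the 30 livers (points, blue for fl/fl and red for knockout), with mean and SD of 5 mice. Mmp12, Mmp2, Timp1, Timp2, Timp3, Adamts2 and Adamts12 are higher in every HFCFD12W+T10W knockout than in any control of that experiment, while Mmp19 is lower, and Mmp15 is higher in the knockouts of all 3 experiments.

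All 3 TIMPs rose in HFCFD12W+T10W knockouts. None passed in HFCFD8W+T10D, and in HFCFD2W neither Timp2 nor Timp3 passed while Timp1 was too low to test. Timp1, an inducible inhibitor that is a common serum marker of fibrosis, was at 0.832, 0.566, 0.115, 1.03 and 0.606 CPM in HFCFD12W+T10W controls and 4.19, 5.91, 5.07, 5.47 and 4.78 in knockouts (3.03 ± 0.29 SE, adjusted p = 4.04e-06). In HFCFD8W+T10D the genotypes overlapped, with 2.55, 4.14, 0.695, 0.406 and 2.26 CPM in controls and 0.468, 2.96, 3.14, 1.66 and 3.42 in knockouts (0.26 ± 0.55 SE, adjusted p = 0.796). Timp2, which also takes part in the activation of pro-MMP2 by MT1-MMP, was at 15.2, 16.3, 14.1, 14.8 and 14.9 CPM in HFCFD12W+T10W controls and 47.9, 43.2, 69.4, 51.7 and 45.2 in knockouts (1.82 ± 0.13 SE, adjusted p = 3.67e-07), and the lowest knockout exceeded the highest control by over 2-fold. Its values in HFCFD8W+T10D were 21.9, 21.7, 18.1, 12.9 and 28.2 and 20.05, 21.9, 28.1, 22.2 and 20.9 (0.15 ± 0.18 SE, adjusted p = 0.619). Timp3, the TIMP that is bound to matrix and blocks ADAM17, was at 35.3, 47.6, 41.6, 35.7 and 40.9 CPM in HFCFD12W+T10W controls and 76.9, 54.9, 77.9, 84.01 and 76.8 in knockouts (0.92 ± 0.12 SE, adjusted p = 3.33e-05). In HFCFD2W, Timp3 was 23.6 to 29.7 CPM in controls and 27.3 to 58.3 in knockouts (0.54 ± 0.18 SE, adjusted p = 0.0512). Timp3 exons overlap Syn3 on the other strand. Timp4 had too few counts to be a member.

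Markers of stellate cells and fibroblasts stood beside these changes. Of 12 such markers, 0 passed in HFCFD2W, 3 passed higher in HFCFD8W+T10D and 12 in HFCFD12W+T10W. Of all genes tested 8.6%, 10.3% and 27.4% passed higher in these experiments. Their summed level was 322 to 401 CPM in HFCFD12W+T10W controls and 1170 to 1439 in knockouts, and 363 to 625 and 565 to 1078 in HFCFD8W+T10D, with no marker at 0. Their part in the values of Mmp2, the TIMPs and the ADAMTS genes was not tested.

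Among the ADAMs, Adam8 changed most. It encodes a sheddase of leukocytes, and was at 0.356, 0.227, 0.689, 0.344 and 0.202 CPM in HFCFD12W+T10W controls and 5.14, 7.48, 4.48, 5.84 and 6.64 in knockouts (4.04 ± 0.28 SE, adjusted p = 3.87e-07). For HFCFD8W+T10D these were 0.811, 0, 0.116, 0.406 and 0.394 and 2.62, 4.11, 6.18, 1.54 and 1.24 CPM (3.12 ± 0.61 SE, adjusted p = 0.00461). Neither pair of groups overlapped. In HFCFD2W 5 counts fell in controls and 1 in knockouts. Of the 12 macrophage markers 10 passed higher in HFCFD8W+T10D, and 9 passed higher and 2 lower in HFCFD12W+T10W, as given above. The part of macrophage genes in the Adam8 change was not tested.

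Adam10 and Adam17 encode the main sheddases of Notch receptors and of TNF and EGF receptor ligands. Adam10 passed in both inducible experiments, at 39.1, 37.00, 41.8, 34.2 and 35.4 CPM in HFCFD8W+T10D controls and 55.3, 67.9, 55.04, 38.5 and 47.02 in knockouts (0.51 ± 0.14 SE, adjusted p = 0.0222). In HFCFD12W+T10W it was at 30.4, 31.2, 30.4, 35.4 and 36.6 and 52.7, 56.2, 54.1, 53.4 and 55.4 CPM (0.77 ± 0.07 SE, adjusted p = 2.94e-06). The second pair of groups was far apart for its spread, while the first overlapped and its pass was lost in 3 of 10 fits without 1 mouse. Adam17 passed in HFCFD12W+T10W (15.2 to 24.1 CPM in controls, 26.8 to 36.6 in knockouts, 0.57 ± 0.12 SE, adjusted p = 0.00179) and not in HFCFD8W+T10D (0.31 ± 0.13 SE, adjusted p = 0.125).

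Adam9, a widely expressed sheddase, was the most abundant ADAM. In HFCFD12W+T10W it passed lower, at 98.9 to 107 CPM in controls and 79.96 to 90.6 in knockouts (-0.23 ± 0.06 SE, adjusted p = 0.00517). On the TPM scale the sign turned, with a log2 fold change of 0.12 where the median of all genes was 0.32. Adam15 and Adam19 were called higher in HFCFD12W+T10W. Adam15, at 2.97, 2.15, 1.72, 1.72 and 2.42 CPM in controls and 6.80, 6.56, 9.12, 6.84 and 7.61 in knockouts, did not overlap (1.79 ± 0.17 SE, adjusted p = 4.49e-06), nor did Adam19, at 0.453 to 0.808 and 1.74 to 4.99 CPM (2.22 ± 0.33 SE, adjusted p = 0.000119).

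Adam11, a member without protease activity that is best known from neurons, had its own pattern. HFCFD8W+T10D controls had 12.4, 12.3, 11.7, 14.9 and 8.46 CPM and knockouts 23.4, 23.4, 28.2, 26.1 and 16.1 (0.99 ± 0.17 SE, adjusted p = 0.00208). No knockout fell among the controls. In HFCFD12W+T10W it was at 18.3, 17.3, 16.1, 12.97 and 16.4 and 20.7, 18.3, 11.1, 17.97 and 12.1 CPM (0.03 ± 0.17 SE, adjusted p = 0.918), and in HFCFD2W at 21.1 to 27.5 and 12.9 to 34.2 (-0.02 ± 0.19 SE, adjusted p = 0.956), with overlap in both. Adam23, its relative, passed nowhere, with log2 values of -0.07, -0.13 and 0.19 in the 3 experiments. Adam32, named after its values were seen, was never tested, since it had 1, 1 and 2 counts in all in the controls of HFCFD2W, HFCFD8W+T10D and HFCFD12W+T10W against 14, 29 and 26 in knockouts. Every knockout lay above every control in the inducible experiments, where the knockout means were at least 1.64-fold and 1.36-fold above the floor. Adam32 is a member only through the knockouts, since the controls held just 1, 1 and 2 of its 73 counts. The membership rule thus favoured a higher level in its knockouts. Adam12, known from activated stellate cells, had 26 counts in HFCFD12W+T10W controls and 102 in knockouts with overlapping groups, and Adam22 had 14 and 20. Neither was tested.

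The procollagen N-proteinases Adamts2, Adamts3 and Adamts14 remove the amino-terminal propeptide of fibrillar procollagens. Adamts2 was at 4.16, 5.098, 4.02, 4.25 and 13.03 CPM in HFCFD12W+T10W controls and 28.3, 22.5, 29.98, 31.2 and 27.5 in knockouts (2.21 ± 0.28 SE, adjusted p = 3.14e-05), and 1 control stood far above the other 4. In HFCFD8W+T10D it was at 9.62, 9.57, 8.23, 6.81 and 12.99 and 12.2, 17.4, 19.9, 12.7 and 12.7 CPM (0.68 ± 0.19 SE, adjusted p = 0.0291), with overlap, and 6 of 10 fits without 1 mouse lost the pass. Adamts14 was called in HFCFD12W+T10W (0.475 to 1.21 and 1.92 to 2.68 CPM, 1.57 ± 0.26 SE, adjusted p = 0.000266). Adamts3 had 7 and 25 counts there and was not tested.

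The proteoglycanases Adamts1, Adamts4, Adamts5, Adamts9 and Adamts15 cut versican and aggrecan. In HFCFD12W+T10W 4 of the 4 tested passed higher, as did 27 of the 34 members and 27.4% of all genes tested. Adamts9 was at 1.19, 2.15, 2.99, 1.49 and 3.03 CPM in controls and 8.98, 9.52, 11.1, 10.8 and 15.5 in knockouts (2.39 ± 0.24 SE, adjusted p = 5.71e-06). Adamts5 was at 1.11 to 2.27 and 5.58 to 8.94 CPM (2.16 ± 0.22 SE, adjusted p = 7.23e-06), and Adamts15 at 0.453 to 1.15 and 2.27 to 4.31 (2.04 ± 0.26 SE, adjusted p = 4.02e-05). Adamts1, the most abundant ADAMTS of the control livers in TPM, differed least (0.56 ± 0.16 SE, adjusted p = 0.0103). None of these pairs overlapped. In HFCFD8W+T10D Adamts9 alone passed (2.13 to 3.11 and 2.81 to 6.66 CPM, 0.81 ± 0.26 SE, adjusted p = 0.0478), and 8 of 10 fits without 1 mouse lost that pass. Adamts4 had 12 counts in HFCFD12W+T10W controls and 48 in knockouts and was not tested.

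Adamts7 and Adamts12, relatives that cut cartilage oligomeric matrix protein, went opposite ways in HFCFD8W+T10D. Adamts12 was at 0.475, 0.793, 0, 0.115 and 0.202 CPM in HFCFD12W+T10W controls and 3.14, 7.21, 4.81, 4.83 and 4.78 in knockouts (3.97 ± 0.44 SE, adjusted p = 1.28e-05), the largest change of the ADAMTS genes. The HFCFD8W+T10D values were 1.16, 1.16, 0.463, 0.305 and 0.885 and 1.03, 3.21, 2.28, 1.19 and 2.09 CPM (1.34 ± 0.41 SE, adjusted p = 0.0411), with overlap, and 6 of 10 fits without 1 mouse lost the pass. Adamts7 was the 1 member called lower in any genotype comparison. HFCFD8W+T10D controls had 4.98, 1.81, 4.17, 4.57 and 2.85 CPM and knockouts 1.78, 2.14, 1.63, 1.66 and 1.33 (-1.09 ± 0.28 SE, adjusted p = 0.0177). The lowest control lay among the knockouts, and without fl/fl replicate 1 of that experiment the fold fell under 2. In HFCFD12W+T10W Adamts7 did not pass (-0.41 ± 0.22 SE, adjusted p = 0.141).

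Of the remaining ADAMTS genes, Adamts10, a microfibril-associated protease, was called in HFCFD12W+T10W (0.689 to 1.49 and 1.48 to 3.74 CPM, 1.27 ± 0.30 SE, adjusted p = 0.00333). Adamts13, which trims von Willebrand factor and is made by stellate cells, did not pass in any experiment, with log2 values of -0.51, 0.08 and -0.26. Adamts6, which falls outside the rule for named genes and was chosen after its values were seen, passed lower in HFCFD12W+T10W (1.55, 1.59, 2.18, 1.38 and 1.82 CPM in controls and 1.13, 0.924, 0.422, 0.912 and 1.295 in knockouts, -0.81 ± 0.27 SE, adjusted p = 0.025), without overlap.

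Adamtsl2, a microfibril-bound regulator of TGF-β availability, made up most of the ADAMTSL family's TPM in all 6 groups. HFCFD12W+T10W controls had 11.2, 8.04, 11.6, 6.77 and 8.68 CPM and knockouts 41.8, 35.1, 37.1, 64.5 and 57.3 (2.39 ± 0.20 SE, adjusted p = 1.38e-06). Every knockout was more than 3-fold above every control. In HFCFD8W+T10D it was at 18.2, 17.9, 16.1, 16.7 and 29.5 and 21.6, 21.8, 40.4, 26.6 and 18.8 CPM (0.40 ± 0.22 SE, adjusted p = 0.243), where 1 control lay above 4 of the 5 knockouts. Adamtsl1 was called in HFCFD12W+T10W on lower values (0.119 to 0.707 and 1.28 to 3.40 CPM, 2.41 ± 0.37 SE, adjusted p = 0.000139). Adamtsl4, a fibrillin-binding protein, passed there with overlap (1.81 to 2.93 and 2.37 to 4.78 CPM, 0.64 ± 0.22 SE, adjusted p = 0.0285), and 5 of 10 fits without 1 mouse lost the pass. Adamtsl3 had 20 and 52 counts without overlap and Adamtsl5 15 and 25 with overlap, both untested. In all, of the 13 members not tested in HFCFD12W+T10W, 7 had every knockout above every control, and in HFCFD8W+T10D 2 of 18 did. The shares of 19.6% and 6.01% given above cover genes that passed the filter. The share among genes too low to test was not computed, so these counts have no like background.

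Whether the genotype effect differed between experiments was tested by interaction in 1 edgeR fit of the 30 mice, in which 38 members were tested. Between HFCFD12W+T10W and HFCFD8W+T10D 14 members had a larger effect in the former and 2 a smaller one, where 4.97% and 5.49% of 12964 genes did. With a difference over 2-fold these were 14 and 0, against 3.86% and 0.602%. All 3 TIMPs were among them: Timp1 (2.74 ± 0.69 SE, adjusted p = 0.0114, log2 difference of the 2 effects), Timp2 (1.64 ± 0.26 SE, adjusted p = 0.000352) and Timp3 (1.13 ± 0.25 SE, adjusted p = 0.00493). Of the MMPs, the effect was larger for Mmp2 (1.64 ± 0.39 SE, adjusted p = 0.00875), Mmp23 (1.66 ± 0.48 SE, adjusted p = 0.0256), Mmp8 and Mmp17, the last 2 on few counts. Mmp8 and Mmp17 were too low to be tested within any experiment. In HFCFD12W+T10W they had 80 and 62 counts in knockouts and 5 and 16 in controls. Of the ADAMTS genes the effect was larger for Adamts2, Adamts5, Adamts9, Adamts12 and Adamts15, led in precision by Adamts5 (1.91 ± 0.36 SE, adjusted p = 0.00151). In the other families it was larger for Adam15 (1.34 ± 0.39 SE, adjusted p = 0.027) and Adamtsl2 (1.96 ± 0.41 SE, adjusted p = 0.00331). The 2 smaller effects were those of Mmp19 (-0.65 ± 0.18 SE, adjusted p = 0.0221) and Adam11 (-0.99 ± 0.28 SE, adjusted p = 0.0207). Control levels enter each difference. HFCFD12W+T10W controls minus HFCFD8W+T10D controls gave log2 values of -1.63 for Timp1, -2.09 for Mmp8, -1.47 for Mmp17 and -1.09 for Mmp23. The values were -1.28 for Adamts12, -1.09 for Adamtsl2 and -0.91 for Adamts5. Of those listed only Adamtsl2 (adjusted p = 0.0193) and Adamts5 (adjusted p = 0.0321) passed in this edgeR contrast. Timp3 alone of the 14 went the other way (0.05).

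For some members that passed in both inducible experiments the difference did not pass. It was 0.89 ± 0.63 SE, adjusted p = 0.404 for Mmp12, 0.89 ± 0.74 SE, adjusted p = 0.499 for Adam8, -0.24 ± 0.49 SE, adjusted p = 0.826 for Mmp27, -0.17 ± 0.23 SE, adjusted p = 0.706 for Mmp14 and 0.07 ± 0.19 SE, adjusted p = 0.881 for Mmp15. A miss of the threshold does not show that the effects are alike. Between HFCFD8W+T10D and HFCFD2W, 2 members had a larger effect in the former, Adam8 and Adam11 (0.99 ± 0.27 SE, adjusted p = 0.0174), and 1 a smaller one, Timp3 (-0.79 ± 0.26 SE, adjusted p = 0.0427), where 4.45% and 6.79% of genes did. The Adam8 difference (adjusted p = 0.0246) rests on HFCFD2W groups at or under 3 counts a library, so its fitted size is no bound. The Timp3 difference was lost under upper-quartile scaling and in some fits without 1 mouse, such as HFCFD2W fl/fl replicate 1.

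**Figure D5:**
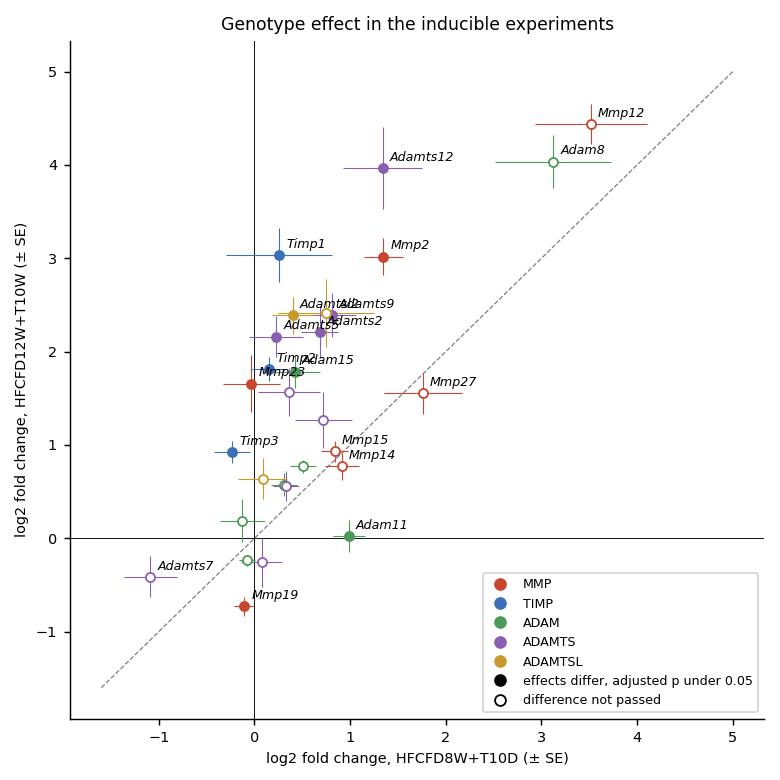
Log2 fold change of knockout over fl/fl in HFCFD8W+T10D (x axis) and in HFCFD12W+T10W (y axis), each with SE, for the 29 members tested in both, coloured by family, with the dashed line where both are equal. Filled points mark the 13 of these members whose effects differ at adjusted p under 0.05, among them Timp1 at 0.26 and 3.03 and Adam11 at 0.99 and 0.03, while Mmp12 lies at 3.52 and 4.44.

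The fl/fl livers themselves differed between experiments. In the HFCFD8W+T10D controls 15 of 38 members were called higher than in HFCFD2W controls and 1 lower, where 11.1% and 2.59% of genes were called. In 6 of the 15 (Mmp8, Mmp9, Mmp13, Mmp27, Adam12 and Adamts6) the HFCFD2W controls were at or under 3 counts a library. Among the other 9 were Timp1 (2.93 ± 0.68 SE, adjusted p = 0.000942, log2 difference), Adamtsl2 (1.45 ± 0.32 SE, adjusted p = 0.000639), Adamts1 (1.13 ± 0.21 SE, adjusted p = 6.38e-05) and Adamts9 (1.15 ± 0.32 SE, adjusted p = 0.00511). Timp1 had 9 counts in all in the HFCFD2W controls and at most 5 in a liver, so its fitted size rests on few counts. Mmp14 passed higher as well (0.88 ± 0.18 SE, adjusted p = 0.000251). The count of 15 fell to 7 without HFCFD2W fl/fl replicate 1. Mmp15 and Adam11 went the other way (-0.95 ± 0.14 SE, adjusted p = 2.86e-06 and -1.02 ± 0.20 SE, adjusted p = 0.000148), so that HFCFD2W knockouts and controls both held more Mmp15 than the same genotype did later. Between HFCFD12W+T10W and HFCFD8W+T10D controls 1 member was called higher, Adamts6 (1.46 ± 0.45 SE, adjusted p = 0.0317), and 1 lower, Adamtsl2 (-1.09 ± 0.31 SE, adjusted p = 0.0193), where 1.19% and 1.87% of genes were called. Without the fold minimum 1 passed higher and 2 lower, against 6.31% and 5.12%. The control livers of HFCFD8W+T10D enter both of these comparisons. Fibroblast marker sums were 168 to 310 CPM in HFCFD2W controls, 363 to 625 in HFCFD8W+T10D controls and 322 to 401 in HFCFD12W+T10W controls, and their part in these differences was not tested.

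Genes that act with the members were counted from lists of known partners, and percentages of all genes that passed in each experiment are those given above. Some of these lists share genes with the marker lists, so their counts are not separate observations. Col1a1, Col3a1 and Dcn are also stellate cell and fibroblast markers, Vwf is an endothelial marker and Trem2 a macrophage marker. Of 13 MMP activators and surface partners, all tested in HFCFD12W+T10W, 6 passed higher and 5 lower. Plat, the tissue plasminogen activator, rose from 0.558 ± 0.159 to 6.65 ± 1.01 CPM (SD, n = 5, log2 fold change 3.58 ± 0.21 SE, adjusted p = 1.19e-07), Plaur, the urokinase receptor, by 1.79 on the log2 scale and Cd44, a docking site for surface MMPs, by 1.26. The list's median log2 fold change was 0.31, with 4 genes called higher and 0 lower. Its summed level was lower in knockouts, at 3307 to 3589 CPM in controls and 1855 to 2440 in knockouts. Of 9 other protease inhibitors and clearance genes, 8 were tested there, 1 passed higher and 2 lower, and the median was -0.10. In HFCFD2W, Serpine2, a serine protease inhibitor, rose from 26.04 ± 7.03 to 85.5 ± 18.3 CPM (log2 fold change 1.72, adjusted p = 6.27e-05) and Reck, a membrane inhibitor of MMPs, fell by 1.21 on the log2 scale, from 5.10 ± 1.05 to 2.22 ± 0.507 CPM (adjusted p = 0.00182).

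Of 9 trafficking partners of ADAM10 and ADAM17, 7 were tested in HFCFD12W+T10W, where 4 passed higher and 1 lower (median log2 fold change 0.39). Tspan17, a tetraspanin that binds ADAM10, was called in both inducible experiments, at log2 fold changes of 1.09 (adjusted p = 0.0132) and 1.86 (adjusted p = 0.000174). Of the 15 shed substrates of ADAM10 and ADAM17 tested in HFCFD12W+T10W, 10 passed higher and 3 lower, with a median of 0.67. Trem2, a lipid receptor of macrophages, rose from 0.823 ± 0.265 to 13.99 ± 1.40 CPM, and Cx3cl1, a membrane-bound chemokine, from 0.784 ± 0.231 to 6.18 ± 1.30. Cd163, a scavenger receptor of resident macrophages, fell from 25.2 ± 11.97 to 2.06 ± 1.70 CPM.

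The substrates of the ADAMTS proteases passed higher in HFCFD12W+T10W for 10 of 10 tested (median log2 fold change 3.16). Vcan, the proteoglycan versican, rose from 0.202 ± 0.168 to 3.94 ± 0.392 CPM, and Col1a1, a fibrillar procollagen, from 13.9 ± 6.15 to 157.5 ± 21.03. Fbn2, a fibrillin, had no count in the controls and 2.67 ± 0.980 CPM in knockouts. Of 14 basement membrane and interstitial matrix genes, 13 passed higher and 1 lower there, with a median of 1.77, among them Eln, or elastin, with 0.476 ± 0.161 CPM in controls and 22.2 ± 4.18 in knockouts (log2 fold change 5.57, adjusted p = 8.32e-09), Tnc, or tenascin C, and Lama2, a laminin chain, with log2 fold changes of 3.74 and 2.68. In HFCFD8W+T10D 3 of 8 ADAMTS substrates and 5 of 14 matrix genes passed higher, with medians of 0.90 and 0.67, Col1a1 (log2 fold change 1.33), Col3a1 (1.18) and Eln (1.47) among those called, and in HFCFD2W 0 of 8 and 2 of 12. All genes tested had medians of 0.01 in each experiment.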

How the data were processed

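Poly(A) RNA of whole liver was sequenced from stranded libraries of 30 mice, 5 in each of 6 groups that were taken from the labels. Per the labels, the authors' processing used Trimmomatic 0.36, STAR 2.5.1, Picard 1.84, RSEM 1.2.22 and DESeq2 with mm10; the annotation release is not given in the sources used here, and all 55450 gene identifiers matched GENCODE M21. The deposited expected counts, estimated by RSEM from the reads of each library, totalled 7996128 to 10257366 per library, and 3.25% of them were not whole. They were rounded for edgeR 4.0.16 (R 4.3.3). The deposited TPM values are those of RSEM. A second deposited table of normalized counts, a depth-scaled signal filtered by the authors to 15010 genes, served only as an alternative.

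Genes passing filterByExpr were fitted by TMM and the quasi-likelihood F test of edgeR, p-values adjusted after Benjamini and Hochberg, each experiment alone for genotype and all 30 mice jointly for interactions and control contrasts. Alternatives were no filter, upper-quartile scaling, DESeq2 1.42.0, limma 3.58.1 on log2 of the value plus 1, a replicate block, other thresholds and leaving out each mouse. A floor of 3 counts per library bounded folds against groups without counts, and covers counting error only. Libraries of a group differed by more than counting noise (lowest chi-square per degree of freedom 7.45), so none was counted as a repeat.

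Named were all MMP and TIMP members, other members called in 1 genotype comparison or passed in 2, the 3 most abundant of each family in TPM, those whose effect differed between experiments, and of each partner list up to 3 called genes per experiment with the largest change. The members and lists were chosen with earlier results of these data known. 1 partner gene that this rule names is not reported here.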

Additional observations from a re-analysis of the deposited data

Results flagged for a closer look

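Of 86 groups of 5 mice examined, 8 held a mouse farther from the other 4 than Dixon's 95% limit allows, where chance gives about 1 in 20. HFCFD8W+T10D fl/fl replicate 1 had 4.52 CPM of Mmp12 with the others at 0.348 to 1.48, and replicate 5 of that group had 29.5 CPM of Adamtsl2 with the others at 16.1 to 18.2. Replicate 3 of the HFCFD8W+T10D knockouts had 2.49 CPM of Mmp23 (others 1.14 to 1.41) and 28.1 CPM of Timp2 (others 20.05 to 22.2). In HFCFD12W+T10W, knockout replicate 2 had 46.3 CPM of Mmp12 (others 36.0 to 38.3) and 2.68 CPM of Adamts14 (others 1.92 to 2.11), and fl/fl replicate 5 had 13 CPM of Adamts2 (others 4.02 to 5.10). HFCFD2W fl/fl replicate 3 had 3.15 CPM of Adam15 (others 1.19 to 1.66).

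The genotype effect differed between experiments, by edgeR's interaction test with Benjamini-Hochberg adjustment, in 19 comparisons. Between HFCFD8W+T10D and HFCFD2W the log2 difference was -0.79 for Timp3 (adjusted p = 0.0427), 5.07 for Adam8 (adjusted p = 0.0246, with HFCFD2W groups at or under 3 counts a library) and 0.99 for Adam11 (adjusted p = 0.0174). Between HFCFD12W+T10W and HFCFD8W+T10D it was 1.64 for Mmp2 (adjusted p = 0.00875), 3.62 for Mmp8 (adjusted p = 0.0245), 2.12 for Mmp17 (adjusted p = 0.0435), -0.65 for Mmp19 (adjusted p = 0.0221) and 1.66 for Mmp23 (adjusted p = 0.0256). The HFCFD12W+T10W controls of Mmp8 were at or under 3 counts a library, so its fitted size is no bound. The TIMPs differed by 2.74 for Timp1 (adjusted p = 0.0114), 1.64 for Timp2 (adjusted p = 0.000352) and 1.13 for Timp3 (adjusted p = 0.00493). Of the other families, the difference was -0.99 for Adam11 (adjusted p = 0.0207), 1.34 for Adam15 (adjusted p = 0.027), 1.51 for Adamts2 (adjusted p = 0.0132), 1.91 for Adamts5 (adjusted p = 0.00151), 1.56 for Adamts9 (adjusted p = 0.00733), 2.59 for Adamts12 (adjusted p = 0.0155), 1.47 for Adamts15 (adjusted p = 0.0293) and 1.96 for Adamtsl2 (adjusted p = 0.00331). Cre line, feeding time and tamoxifen cannot be told apart in these differences.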

How the results depend on the processing

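The count of members called kept within 1.5 times its value under the alternatives tried except as follows. Without the fold minimum 2 members were higher in HFCFD2W and 11 in HFCFD8W+T10D, and 3 were lower in HFCFD12W+T10W. At an adjusted p under 0.01, 3 were higher and 0 lower in HFCFD8W+T10D, and 0 were lower there with limma on the authors' normalized counts or on TPM, an alternative chosen after seeing the data. With upper-quartile scaling 0 members had a smaller effect in HFCFD8W+T10D than in HFCFD2W, 0 were lower in HFCFD8W+T10D than in HFCFD2W controls, and 3 were lower in HFCFD12W+T10W than in HFCFD8W+T10D controls. With DESeq2 the last 2 counts were 0 and 2, and without a low-count filter 0 members were higher in HFCFD12W+T10W controls. The cause was not tested.

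Leaving out each mouse in turn gave 1 to 1 members higher and 0 to 0 lower in HFCFD2W, 4 to 7 and 0 to 1 in HFCFD8W+T10D, and 20 to 25 and 0 to 0 in HFCFD12W+T10W. The 0 lower in HFCFD8W+T10D came without fl/fl replicate 1. Larger and smaller effects numbered 1 to 4 and 0 to 2 between HFCFD8W+T10D and HFCFD2W, and 10 to 15 and 0 to 2 between HFCFD12W+T10W and HFCFD8W+T10D. The 1 and the 4 came without HFCFD2W fl/fl replicate 2 and HFCFD8W+T10D knockout replicate 4, and the last 0 without HFCFD8W+T10D fl/fl replicate 5. Controls of HFCFD8W+T10D were higher than those of HFCFD2W in 7 to 17 members and lower in 0 to 1, with 7 only without HFCFD2W fl/fl replicate 1. Controls of HFCFD12W+T10W were higher than those of HFCFD8W+T10D in 0 to 1 and lower in 0 to 4.

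Same-numbered mice of both genotypes did not deviate together (correlations of -0.231 to 0.07 in HFCFD2W, -0.094 to 0.16 in HFCFD8W+T10D and -0.053 to 0.184 in HFCFD12W+T10W), so the numbers do not pair mice. With the replicate block the counts higher and lower were 1 and 0, 5 and 1, and 20 and 0 in the 3 experiments. Signs that turned with the block were those of Timp2 (-0.032), Adam9 (-0.017) and Adamts9 (-0.252) in HFCFD2W and Adam11 (-0.002) in HFCFD12W+T10W, where none had passed.

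Of the log2 fold changes of named members that passed, 285 of 301 values under other alternatives and 393 of 430 without 1 mouse kept direction and pass, and 1 turned sign, that of Adam9 in HFCFD12W+T10W on TPM (0.116). Of those that had not passed, others also turned. For HFCFD2W these were Adam9 at -0.001 without a filter, -0.008 with upper-quartile scaling, -0.003 with DESeq2 and -0.0002 in the joint fit, Adam11 at 0.041 and Adamtsl4 at 0.093 on TPM, and Adamts5 at -0.010 on the authors' normalized counts. For HFCFD8W+T10D they were Mmp23 at 0.001 with upper-quartile scaling, and Mmp19 at 0.086, Mmp23 at 0.171 and Adam9 at 0.123 on TPM. For HFCFD12W+T10W they were Adam11 at -0.0003 with DESeq2, -0.062 on the authors' normalized counts and -0.019 in the joint fit, and Adamts13 at 0.053 on TPM. Without 1 mouse signs turned within -0.087 to 0.13 for Adam11 in HFCFD12W+T10W, and in HFCFD2W within -0.179 to 0.131 for Adam11, -0.037 to 0.038 for Adam9, -0.267 to 0.149 for Adamts5, -0.052 to 0.372 for Adamts7 and -0.092 to 0.244 for Adamts9. In HFCFD8W+T10D they turned within -0.047 to 0.187 for Adamts13, -0.138 to 0.217 for Adamtsl4, -0.261 to 0.132 for Mmp23 and -0.025 to 0.664 for Timp1. At these depths 13 members had too few counts to be tested in any experiment.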
